A study of Mus musculus with 4 samples.

Results

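The T-lineage transcription factors described here were 9 genes of the DNA-binding proteins that commit progenitors to the T lineage and steer thymocytes to the CD4 or the CD8 fate. They were chosen by symbol, and all 9 were found among the 10598 genes of the deposited table: Tcf7, Lef1, Bcl11b, Gata3, Runx1, Runx3, Zbtb7b, Tox and Satb1. The table held 1 RNA sequencing library for each of 4 groups of C57BL/6J thymus. These were wild type given vehicle, wild type given N-methyl-N-nitrosourea (MNU), CAMKIIgamma-/- given vehicle and CAMKIIgamma-/- given MNU. CAMKIIgamma, encoded by Camk2g, is the gamma subunit of a calcium-activated protein kinase, and MNU is an alkylating mutagen used to induce lymphoma of the thymus. A single intraperitoneal dose of 75 mg/kg had been injected when mice were 4 to 5 weeks old, and treatment time is labelled as 6 months in all groups. How many mice a library stands for is not stated in the labels. The study asked which genes differ when lymphoma does or does not develop with and without the kinase. With 1 library in each group no difference below has a replicate check or a p-value, and the values describe 4 libraries.

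In the thymus, NOTCH signals from the epithelium switch on Tcf7, which encodes TCF1, and Gata3, and these in turn open the T-cell programme and switch on Bcl11b, which closes off other fates. Lef1 is the close relative of Tcf7, and both proteins bind DNA through an HMG box. Satb1 organises chromatin in thymocytes, and Tox, another HMG-box protein, is needed for CD4 T cells to form. Runx1 acts throughout T-cell development. At the last choice Zbtb7b, which encodes ThPOK, holds cells in the CD4 fate, while Runx3 silences Cd4 and drives the CD8 fate, and each of the pair represses the other.

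The promoters of the opposed pair and of Runx1 are shown first, because Runx3 and Zbtb7b differed most between the libraries and RUNX proteins bind a short motif that can be looked for. Each window holds 250 bases before and 50 after a RefSeq transcription start of the GRCm38.p6 build, read 5′ to 3′ on the strand of the gene. The motifs TGTGGT and TGCGGT were searched on both strands, and capitals mark the matches. The Runx1 window lies at chr16:92826025-92826324 on the minus strand, the Runx3 window at chr4:135120395-135120694 on the plus strand and the Zbtb7b window at chr3:89387622-89387921 on the minus strand.
Runx1: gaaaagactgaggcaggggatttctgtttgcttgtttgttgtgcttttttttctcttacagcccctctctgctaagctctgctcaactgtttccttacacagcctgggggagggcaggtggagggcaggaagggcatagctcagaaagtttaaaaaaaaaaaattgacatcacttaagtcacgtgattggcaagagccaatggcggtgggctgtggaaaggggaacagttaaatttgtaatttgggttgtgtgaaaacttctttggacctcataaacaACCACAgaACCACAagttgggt
Runx3: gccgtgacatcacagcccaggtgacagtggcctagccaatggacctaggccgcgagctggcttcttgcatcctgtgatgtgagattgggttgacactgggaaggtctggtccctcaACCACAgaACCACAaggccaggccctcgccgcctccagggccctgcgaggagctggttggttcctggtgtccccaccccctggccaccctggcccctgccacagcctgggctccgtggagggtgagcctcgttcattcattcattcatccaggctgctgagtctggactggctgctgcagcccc
Zbtb7b: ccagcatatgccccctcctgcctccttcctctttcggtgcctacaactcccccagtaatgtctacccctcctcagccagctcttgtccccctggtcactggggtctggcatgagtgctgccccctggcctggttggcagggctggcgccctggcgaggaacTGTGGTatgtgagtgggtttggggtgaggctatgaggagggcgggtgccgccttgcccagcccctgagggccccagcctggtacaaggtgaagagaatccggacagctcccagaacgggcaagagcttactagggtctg

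The Runx1 and Runx3 windows each held 2 matches that started 8 bases apart, inside a run of 18 bases that both share, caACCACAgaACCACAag. That run was found in 4 of 32851 RefSeq windows, those of Runx1, Runx2, Runx3 and Gm16225. The Zbtb7b window held 1 match, starting 89 bases before the start site. Over all windows 22.4% held at least 1 match to either motif, and 3 of the 19 windows of the 8 factors with an entry did. A second window of each of Runx1, Runx3 and Zbtb7b held none. Matches to CTTTGA on either strand, the core that TCF and LEF proteins bind, were found in 1 window each of Lef1 and Bcl11b, against 5257 of the 32851 windows. The motif of GATA factors, searched as AGATAA on either strand, was found in 1 window of Lef1, against 11.2% of all windows. Tox had no entry. A match describes the letters of a window and not binding, and no binding was measured.

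The libraries summed to between 32911362 and 34836257 normalised counts. Camk2g stood at 2749 in vehicle and 3173 in MNU wild type, but at 489 in vehicle and 29.7 in MNU knockout. These are 17.8% and 1.08% of the vehicle wild type, so that the deleted gene goes in part against the label of the vehicle knockout library, where it was 16.5-fold higher than in MNU knockout. Wild type with MNU stood apart, with a Spearman's rho across genes of 0.837 to 0.867 against the other libraries, whereas the other 3 had 0.981 to 0.982 among themselves. The library labelled knockout without MNU also held part of that profile. Over 42 genes whose level in wild type with MNU was above 1000 and more than 20-fold that of both the wild type without MNU and the knockout with it, its level lay a median of 15.4% of the way to that of wild type with MNU (13.2% to 21.4%). Whether that library holds RNA of another sample was not tested. For the 9 factors, differences and ratios that rest on it are also given below with that share subtracted.

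All 9 factors were well above the low values of the table, and 8 of 9 had at least 1000 normalised counts in every library. The exception was Zbtb7b in wild type with MNU. Per kilobase of annotated exon in GENCODE M21, a length that only approximates the one the authors counted over, Tcf7 was the most abundant in wild type without MNU at 36582. It was followed by Satb1 at 7345, Bcl11b at 2965, Lef1 at 1904, Tox at 1045, Gata3 at 905, Runx1 at 659, Zbtb7b at 313 and Runx3 at 240. In wild type with MNU the first 4 kept that order, at 17673, 4071, 2190 and 1196 per kilobase. Runx3 came next at 816, ahead of Runx1 at 562, Gata3 at 406, Tox at 362 and Zbtb7b at 39.3. Whether neighbours in either order differ beyond the spread between animals cannot be said from 1 library each.

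**Figure D1:**
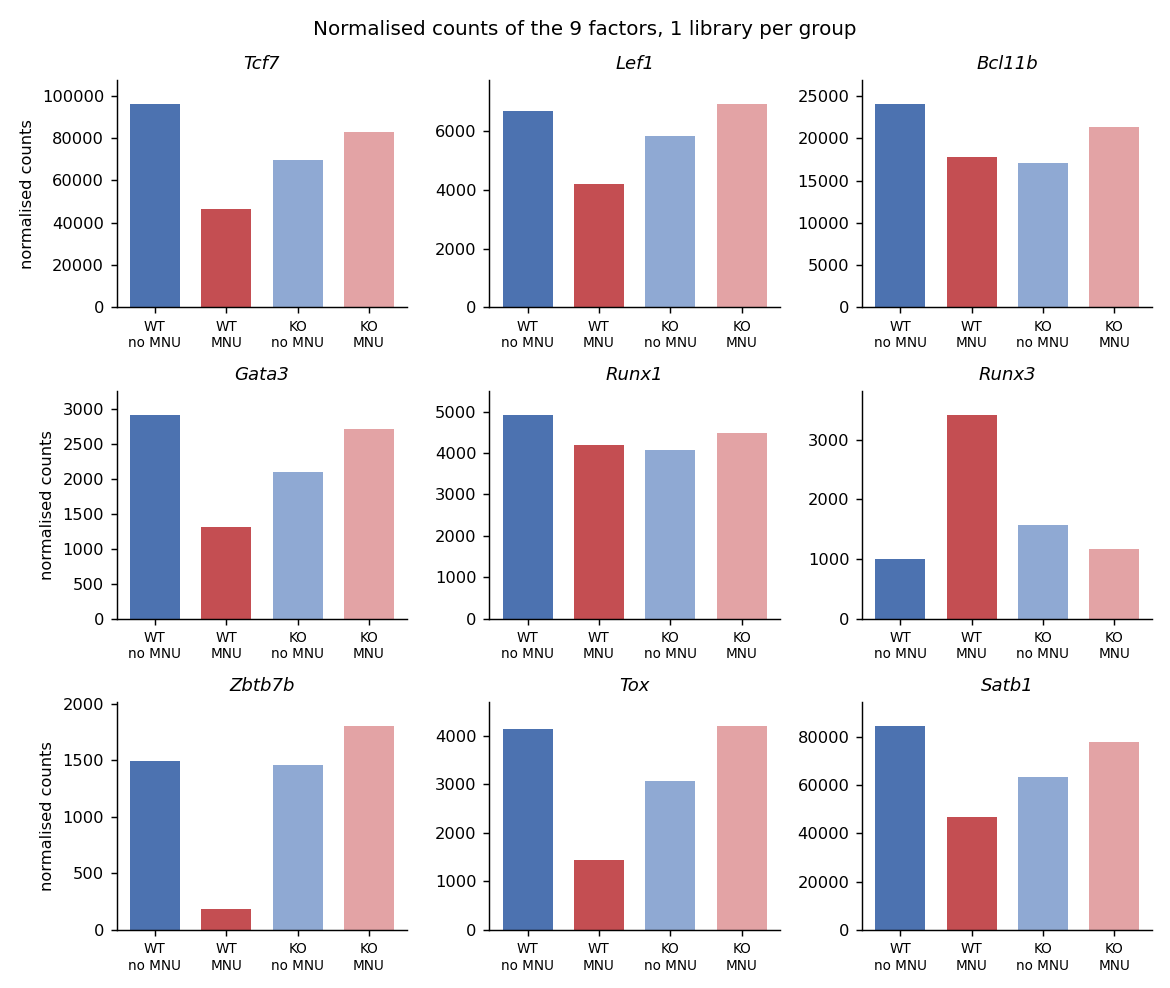
Normalised counts (y axis, from 0, scaled per panel) of the 9 factors in the 4 libraries, 1 bar per library, with no error bars since each group is 1 library. WT is wild type and KO is CAMKIIgamma-/-. Wild type with MNU is the lowest library for 6 of the factors and the highest for Runx3. The share of all genes that were lowest or highest there was not counted.

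In wild type, the thymus with MNU held far less Zbtb7b and more Runx3 than the thymus without it, and less Tox, Gata3 and Tcf7. As deposited, Runx1 and Bcl11b were nearest to their level without MNU and below it, and when scaled to T-cell genes both were above it. Changes were counted at 2-fold or more on the log2(value + 10) scale. By that rule 1 of 9 factors was higher, where 7.14% of the 10587 genes kept were, and 4 of 9 were lower, where 14.2% of all genes were. The median log2 difference of the 9 was -0.85 and that of all genes -0.01. The fold of a single gene is the plain ratio of its values, with nothing added.

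Among the factors of the CD4 and CD8 choice, Zbtb7b had 1495 normalised counts in vehicle wild type, 188 in MNU wild type, 1455 in vehicle knockout and 1799 in MNU knockout. The 3 libraries other than wild type with MNU thus lay close together, and wild type with MNU was 7.97-fold below wild type without it, a log2 difference of -2.93. Of the 10587 genes, 369 had a lower difference. Runx3 stood at 1003, 3409, 1562 and 1175 in the same order. Wild type with MNU was the highest, 3.40-fold above wild type without MNU (log2 difference 1.76), and 319 genes had a higher difference. Tox, whose loss in mice stops CD4 T cells from forming, stood at 4139, 1435, 3068 and 4191 and was 2.88-fold lower with MNU in wild type.

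Among the factors of commitment, Tcf7 stood at 96028, 46392, 69746 and 82903 in the same order and was 2.07-fold lower with MNU in wild type. Gata3 stood at 2910, 1305, 2104 and 2718 and was 2.23-fold lower. Lef1, the relative of Tcf7, stood at 6675, 4194, 5844 and 6915 and was 1.59-fold lower, short of the 2-fold rule. For all of these, wild type with MNU was the lowest library and knockout without MNU the next. Bcl11b stood at 24051, 17766, 17092 and 21315, so that its lowest level was in knockout without MNU, and wild type with MNU was 1.35-fold below wild type without it.

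Runx1 differed least of the 9, at 4910, 4185, 4080 and 4487, with a ratio of 1.20 between its highest and lowest library. It was 1.17-fold lower with MNU in wild type. Satb1 stood at 84401, 46784, 63302 and 78071 and was 1.80-fold lower with MNU in wild type. Without strand information in the sources used here, reads of a gene on the opposite strand cannot be told apart from these. In GENCODE M21 such a gene overlaps 34.5% of the Lef1 exon bases and 6.56% of those of Tox, and less than that of Gata3, Runx1 and Satb1. No overlap with another gene's exons was annotated for Tcf7, Bcl11b, Runx3 or Zbtb7b.

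**Figure D2:**
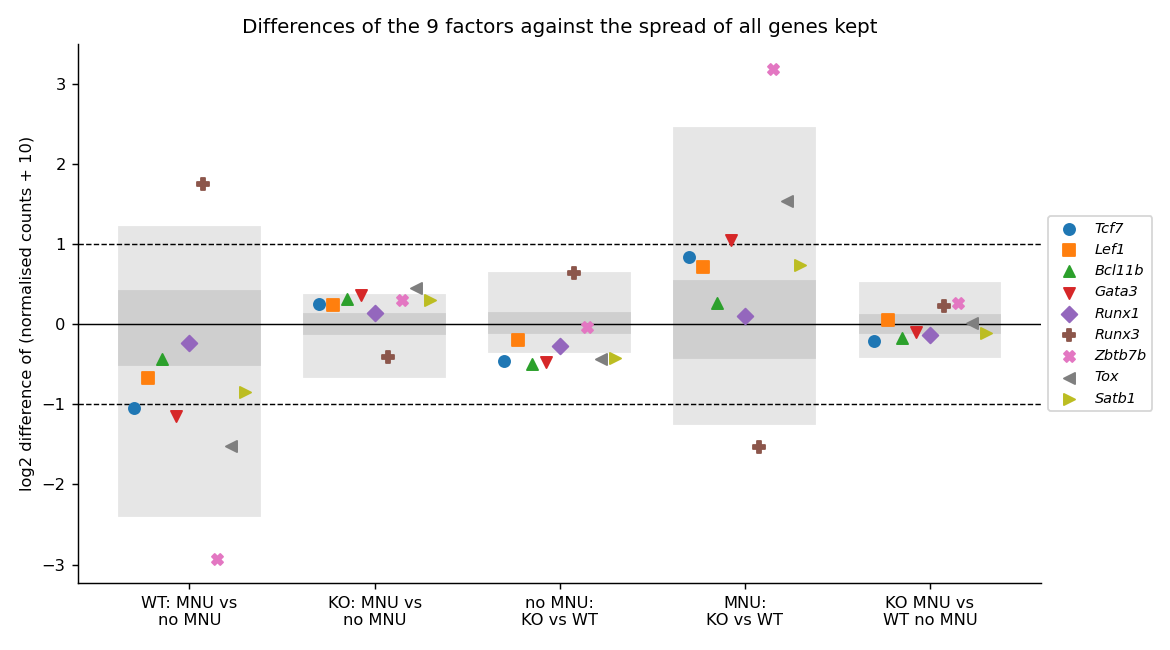
Log2 differences of (normalised counts + 10) of the 9 factors in 5 comparisons of 2 libraries, 1 symbol per factor. Grey boxes span the 5th to 95th and, darker, the 25th to 75th percentile of the 10587 genes kept, and dashed lines mark 2-fold. Zbtb7b (-2.93) and Runx3 (1.76) lie farthest from 0 in the comparison of MNU in wild type, and no factor passes 2-fold in the comparisons that leave out wild type with MNU.

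Ratios between factors within a library do not depend on how libraries were scaled. The ratio of Runx3 to Zbtb7b was 0.670 in vehicle wild type, 18.2 in MNU wild type, 1.07 in vehicle knockout and 0.653 in MNU knockout. It was thus 27.1-fold higher with MNU in wild type, and in knockout with MNU it was near the level of wild type without MNU. The ratio of Runx3 to Runx1 was 0.204, 0.815, 0.383 and 0.262 in the same order, 3.99-fold higher with MNU in wild type. With the share subtracted from the vehicle knockout library, its ratio of Runx3 to Zbtb7b was 0.728 in place of 1.07 and that of Runx3 to Runx1 0.302 in place of 0.383. The ratio of Lef1 to Tcf7 varied little, at 0.0695, 0.0904, 0.0838 and 0.0834. The ratio of Tox to Satb1 was 0.0490, 0.0307, 0.0485 and 0.0537, lowest in wild type with MNU. The share subtracted moved these ratios in vehicle knockout to 0.0830 and 0.0508.

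**Figure D3:**
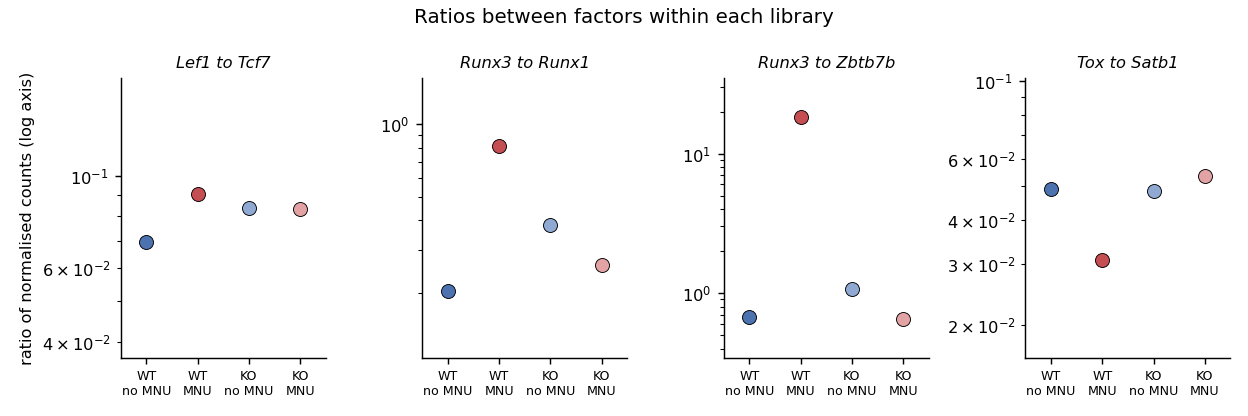
Ratio of the normalised counts of 2 factors (y axis, log scale, range set per panel) in each of the 4 libraries, 1 point per library. The ratio of Runx3 to Zbtb7b is 18.2 in wild type with MNU and between 0.653 and 1.07 in the other libraries.

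The level of T-cell transcripts as a whole also differed. The geometric mean of 8 genes that T cells share (Cd3d, Cd3e, Cd3g, Cd247, Lck, Cd2, Thy1 and Ptprc) was 17737 in vehicle wild type, 12472 in MNU wild type, 14868 in vehicle knockout and 17817 in MNU knockout. In bulk thymus, fewer cells of a type and less RNA per cell cannot be told apart. The 8 genes did not move as one: in wild type with MNU 7 were lower and Ptprc, the CD45 phosphatase of all white blood cells, was higher, and 0 of 8 passed 2-fold. Relative to this mean, Zbtb7b was 5.60-fold lower with MNU in wild type, Tox 2.03-fold lower and Runx3 4.84-fold higher. These 3 stayed past 2-fold, Tox only just, at a log2 difference of -1.02. Tcf7 was 1.46-fold and Gata3 1.57-fold lower on that scale and no longer passed it, and the differences of Bcl11b (log2 0.07) and Runx1 (0.28) turned positive. This scaling moved the median of all genes from -0.01 to 0.50 and the genes at least 2-fold higher and lower to 21.0% and 9.27%. Set against that median, Bcl11b and Runx1 were below it. Without Ptprc the mean of the T-cell genes would have fallen further with MNU in wild type, and Tox less relative to it. A mean without Ptprc was not computed, so the place of Tox past 2-fold rests on the genes chosen.

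**Figure D4:**
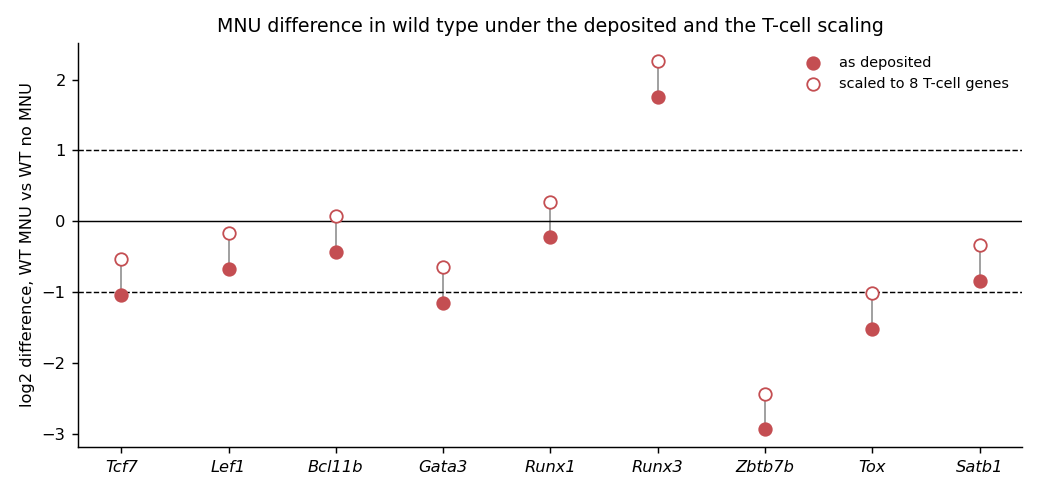
Log2 difference between wild type with and without MNU for each factor, as deposited (filled) and after scaling to 8 T-cell genes (open), with dashed lines at 2-fold. Zbtb7b, Tox and Runx3 lie past 2-fold on both scales, Tox only just on the T-cell scale (-1.02), and Tcf7 and Gata3 on the deposited scale.

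Markers of other cells differed between the same libraries. Of 15 thymic epithelial genes, 12 were at least 2-fold lower with MNU in wild type. Their summed level was 102792 in vehicle wild type, 5614 in MNU wild type, 106865 in vehicle knockout and 83083 in MNU knockout. Foxn1, the regulator that defines this epithelium, was listed at 0 in wild type with MNU. All 5 dendritic and MHC class II genes measured were at least 2-fold lower with MNU in wild type, with summed levels of 117899, 4759, 142161 and 159055 in the same order.

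Of 8 B cell genes 5 were lower and 1 higher with MNU in wild type, with summed levels of 3823, 2850, 6213 and 10258. Of 10 macrophage genes 4 were higher (31346, 53809, 49874 and 61165 in all), of 7 fibroblast genes 5 were higher (19745, 59144, 30379 and 17081) and of 4 neutrophil genes 3 were higher (530, 1849, 425 and 1702). Of 3 endothelial genes none passed 2-fold (6566, 7432, 6169 and 5580). The part of these cells in the differences of the 9 factors was not tested.

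NK and innate lymphoid cells use Runx3 as well. Of their 7 measured markers 4 were lower and 1, Prf1, was higher with MNU in wild type, where Runx3 was highest. The summed level was 3818, 2913, 7430 and 6831 in the same order. The receptor genes that define NK cells were near 0 in wild type with MNU, with Klrb1c at 12.0, Klrd1 at 4.53 and Klrk1 at 1.75. Other markers of the list were not, since Il2rb stood at 1254 without and 901 with MNU in wild type and Gzma at 1363 and 1491. The part of these cells in the level of Runx3 was not tested.

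Other genes of the CD4 and CD8 choice were looked at next, from a list of 13 of which 10 were measured. With MNU in wild type 1 was at least 2-fold higher and 4 were lower, and the median log2 difference was -0.89. Cd40lg, the helper ligand of CD4 T cells, stood at 289 in vehicle wild type, 1.75 in MNU wild type, 186 in vehicle knockout and 337 in MNU knockout. Itgae, the integrin CD103, which Runx3 is known to induce in CD8 cells, stood at 832, 116, 877 and 1046, and so was 7.17-fold lower where Runx3 was highest.

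Prf1, the pore protein of killer cells and also a gene that Runx3 induces, stood at 129, 484, 234 and 219 and was 3.76-fold higher with MNU in wild type. Socs1, a cytokine signalling inhibitor, was 3.04-fold lower. Cd4 stood at 42622, 21616, 27365 and 33005 and was 1.97-fold lower, just short of the rule. The CD8 chains parted, since Cd8a stood at 59567, 50774, 45133 and 50518 and Cd8b1 at 34750, 16579, 25862 and 30741. Cd8a was thus 1.17-fold and Cd8b1 2.10-fold lower with MNU in wild type. Zbtb7a, the relative of Zbtb7b, was 1.75-fold lower.

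**Figure D5:**
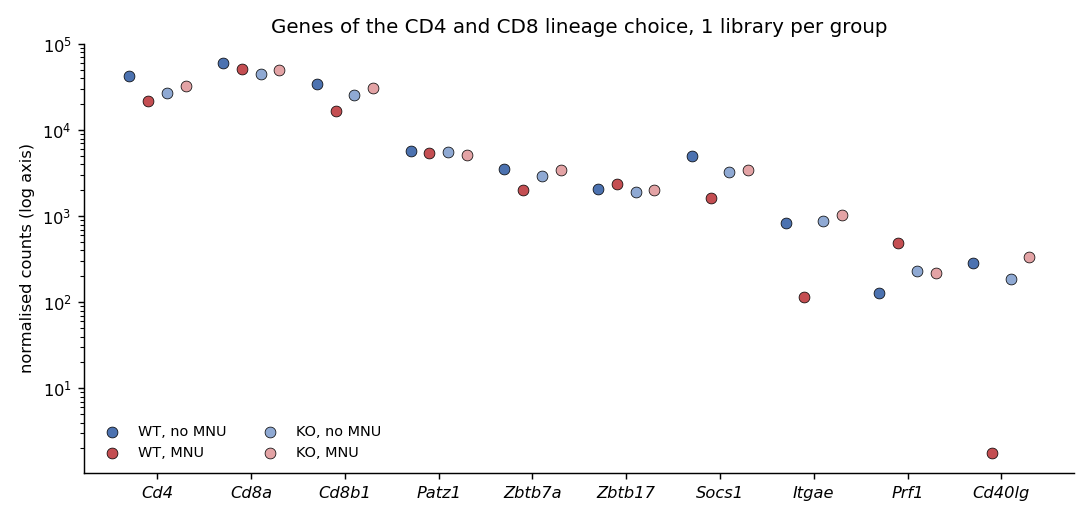
Normalised counts (y axis, log scale) of the 10 measured genes of the CD4 and CD8 lineage choice, 1 point per library, with WT for wild type and KO for CAMKIIgamma-/-. Cd40lg and Itgae are lowest and Prf1 is highest in wild type with MNU.

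Most measured partners of the factors, like most genes, were within 2-fold with MNU in wild type, where 7.14% of all genes were higher and 14.2% lower. Of 14 measured partners and inhibitors of TCF1 and LEF1, 0 were at least 2-fold higher and 2 were lower with MNU in wild type. These were the Groucho co-repressors Tle2 (1039 and 309) and Tle4 (1330 and 639), while their relative Tle3 stood at 9025 and 15791. Ctnnb1, the beta-catenin coactivator, stood at 18051 and 23200. Of 6 measured RUNX partners 1 was lower, the co-repressor Cbfa2t3 (3208 and 966). Cbfb, the subunit that all RUNX proteins need to bind DNA well, stood at 7612, 7205, 6905 and 7484 in the 4 libraries.

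Of 14 subunits of NuRD and other co-repressors of BCL11B and SATB1, 1 was at least 2-fold lower with MNU in wild type, the remodeller Chd3, at 7039 and 1331. Its paralog Chd4 stood at 19841 and 26072. Of relatives and cofactors of GATA3, TOX, SATB1 and BCL11B, 3 of 9 were measured, and Tox2 was higher, at 116 and 329. Zfpm1, the GATA cofactor FOG1, stood at 2070 and 3501.

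Genes reported as targets did not follow 1 direction. Of 6 measured targets of TCF1 and LEF1, 2 were at least 2-fold higher with MNU in wild type and 1, Gata3 itself, was lower. Axin2, the feedback inhibitor of WNT signalling, stood at 786, 1825, 996 and 912, and Il2ra, the high-affinity interleukin 2 receptor chain, at 2661, 10124, 3677 and 1850. Both were highest in wild type with MNU, the library with the least Tcf7 and Lef1.

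Of 8 measured genes tied to SATB1, 2 were higher and 4 lower, but 2 of the 8, Runx3 and Zbtb7b, are among the 9 factors. The recombinase genes Rag1 (123683, 32664, 73746 and 99894) and Rag2 (6793, 2113, 4625 and 5534) were 3.79-fold and 3.22-fold lower with MNU in wild type. Il7r, the interleukin 7 receptor, stood at 1702 and 116.

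Of 6 measured genes that BCL11B represses in mouse T cells, 1, the circadian and cytokine regulator Nfil3, was higher with MNU in wild type (325 and 1189). The 3 that were lower were the NK receptors given above. Id2, the inhibitor of E proteins, stood at 1899 and 1530. Of 20 factors of progenitors and other lineages 6 were measured, with 0 higher and 2 lower: the myeloid factor Cebpa stood at 3142 and 433 and the stem-cell factor Meis1 at 449 and 30.6. The progenitor factors Lmo2 (309 and 265) and Lyl1 (179 and 228) were within 2-fold.

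In the knockout, none of the 9 factors differed 2-fold between the thymus with MNU and the library labelled as without it. In wild type with MNU 8 of 9 had been below the level without it, whereas in the knockout those same 8 were above it and Runx3 was below. Of all genes kept, 65.4% had MNU differences of opposite sign in the genotypes. Scaled to the 8 T-cell genes, Bcl11b and Runx1 turned positive in wild type, and Tcf7, Lef1 and Runx1 turned negative in the knockout (-0.01, -0.02 and -0.12). Tox had the largest ratio, 1.37-fold higher with MNU, then Gata3 at 1.29-fold, Bcl11b at 1.25-fold and Zbtb7b at 1.24-fold. Runx3 was 1.33-fold lower. Of the genes kept, 0.331% passed 2-fold upwards and 2.95% downwards. The median of the 9 was 0.30 against 0.01 for all genes, and the 8 T-cell genes were also all higher with MNU in the knockout, with a median of 0.26. All 4 neutrophil markers were at least 2-fold higher with MNU in the knockout, with a median of 1.95 as deposited and 3.10 with the share subtracted. Of 7 fibroblast markers 3 were lower, with a median of -0.95 that was -0.19 with the share subtracted, and of 10 macrophage markers 1 was lower. The part of these cells was not tested.

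The library labelled knockout without MNU lay between wild type with MNU and both other libraries for 7 of 9 factors, the exceptions being Bcl11b and Runx1. How many of all genes did so was not counted. Its level lay 45.8% of the way to wild type with MNU for Tcf7, 36.6% for Lef1, 47.1% for Gata3, 40.2% for Tox and 52.1% for Satb1. These are beyond the 13.2% to 21.4% of the genes that gave the share. Runx3 (20.4%) lay within that range and Zbtb7b (13.16%) just below its lower end (13.25%). The genes of the share had steps of more than 20-fold, whereas no factor differed more than 9.59-fold between libraries. With the 15.4% share subtracted from that library, the median of the 9 with MNU in the knockout was 0.17. The difference of Runx3 was then -0.06 in place of -0.41. Bcl11b then stood at 0.33, Tox at 0.32, Gata3 at 0.27, Satb1 at 0.24, Lef1 at 0.17, Tcf7 at 0.16, Runx1 at 0.14 and Zbtb7b at 0.09. The order of the factors by size thus depended on that library, and Zbtb7b moved from 0.30 to 0.09.

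Without MNU, none of the 9 factors differed 2-fold between the library labelled knockout and wild type, where 2.59% of all genes were higher and 0.359% lower. Bcl11b was 1.41-fold lower in the knockout, Gata3 and Tcf7 1.38-fold, Tox 1.35-fold, Satb1 1.33-fold and Runx1 1.20-fold, and Runx3 was 1.56-fold higher. Zbtb7b stood at 97.3% of the wild-type level. With the share subtracted, the log2 difference of Runx3 moved from 0.63 to 0.29 and that of Zbtb7b from -0.04 to 0.17, whereas that of Bcl11b was -0.49 before and -0.50 after. Tcf7 was then at -0.38, Gata3 at -0.37, Satb1 at -0.35, Tox at -0.30, Runx1 at -0.27 and Lef1 at -0.12. For Bcl11b, 243 of the 10587 genes had a lower difference. The 8 T-cell genes had a median of -0.28 in the same comparison, and on their scale Bcl11b had a log2 difference of -0.24, and Lef1 and Zbtb7b turned positive (0.06 and 0.21). NK markers (3 of 7 at least 2-fold higher), B cell markers (2 of 8) and macrophage markers (2 of 10) were higher in the knockout without MNU. Their medians were 0.99, 0.71 and 0.71 as deposited and 1.15, 0.93 and 0.72 with the share subtracted, and their part in these values was not tested.

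With MNU, the knockout held more Zbtb7b (9.59-fold), Tox (2.92-fold) and Gata3 (2.08-fold) than the wild type, and less Runx3 (2.90-fold). These were 3 of 9 factors higher, against 15.0% of all genes, and 1 of 9 lower, against 7.37%. Tcf7 was 1.79-fold higher, Satb1 1.67-fold and Lef1 1.65-fold. On the scale of the 8 T-cell genes Gata3 was within 2-fold, at a log2 difference of 0.54, and Bcl11b and Runx1 turned negative (-0.25 and -0.41), still above the median of all genes, -0.50. The genes at least 2-fold higher and lower then made up 9.54% and 21.2% of all. Between the same libraries 12 of 15 epithelial and 5 of 5 dendritic and MHC class II markers were at least 2-fold higher in knockout. So were 6 of 8 B cell, 5 of 7 NK, 1 of 4 neutrophil and 1 of 7 fibroblast markers. Lower were 5 of 7 fibroblast, 2 of 10 macrophage and 1 of 7 NK markers, and the part of these cells was not tested.

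This comparison shares the wild-type MNU library with that of MNU in wild type. Set directly against wild type without MNU, knockout with MNU had 0 of 9 factors past 2-fold in either direction, where 1.57% of all genes were higher and 1.11% lower. The log2 differences ran from -0.21 for Tcf7 to 0.26 for Zbtb7b. Between these libraries 8 of 8 B cell markers (median 1.45) and 4 of 4 neutrophil markers (median 1.91) were at least 2-fold higher in the knockout. So were 2 of 7 NK, 2 of 10 macrophage and 1 of 5 dendritic and MHC class II markers. Lower were 1 of 10 macrophage and 1 of 7 fibroblast markers, and the part of these cells was not tested.

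The change with MNU in the knockout minus that in wild type rests on all 4 libraries. It was positive for 8 of 9 factors and negative for Runx3, and its sizes were 3.23 for Zbtb7b, -2.16 for Runx3, 1.97 for Tox, 1.52 for Gata3, 1.30 for Tcf7, 1.15 for Satb1, 0.91 for Lef1, 0.76 for Bcl11b and 0.37 for Runx1, the last of which turned negative on the scale of the T-cell genes (-0.40), as did Bcl11b (-0.01). Of the 8 T-cell genes 7 were also positive as deposited and 1 was negative. The median of the 9 factors was 1.15 and that of all genes 0.03. The share of all genes with a positive value was not counted. At a limit of 2 on the log2 scale 1 of 9 factors was higher, where 6.62% of all genes were, and 1 was lower, where 3.64% were. With the share subtracted Zbtb7b stayed past that limit at 3.02 and Runx3, at -1.82, did not. The others were then at 1.84 for Tox, 1.42 for Gata3, 1.21 for Tcf7, 1.09 for Satb1, 0.84 for Lef1, 0.77 for Bcl11b and 0.37 for Runx1.

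Of the 9 factors, Zbtb7b was the only one whose highest and lowest libraries differed at least 4-fold. Among 10470 other genes with a mean of at least 100, the genes whose pattern over the 4 libraries lay nearest to it were Trim30a, Ifi203 and Clec2d, at Euclidean distances of 0.0232, 0.0876 and 0.109 between centred log2 profiles. Trim30a stood at 2957, 373, 2875 and 3503 in the same order of libraries. Ifi203 stood at 4240, 593, 4428 and 5381, and Clec2d at 3143, 404, 3303 and 4077. These genes belong to families with close copies, so reads may be shared with relatives.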

How the data were processed

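Thymus RNA of 4 groups, 1 library each, had been sequenced after TruSeq preparation, and the labels' protocols ask for RNA integrity numbers above 7.5. The tools TopHat2 2.0.8b and edgeR and the build mm9 are named, without role, per the submitters' processing notes. The deposited values are a signal per gene, called normalised counts per the file headers. Normalisation, counting, annotation and gene filters are not stated by the authors' labels or headers. Since the values were not whole numbers, no count model was used, and no result given here rests on a counting interval.

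Differences are of log2(value + 10), over the 10587 genes whose mean reached 10. With 1 library per group no test was possible. Genes past 2-fold were counted, or past a log2 value of 2 where MNU changes were subtracted. The code of the rule was checked on counts simulated from wild type without MNU, which hold no spread between animals and so say nothing of it. The members, lists and rules were chosen with earlier results of these data known. Genes named are the 9 factors, up to 4 members per list past 2-fold with the largest difference, those that state a marker level, and the 3 nearest in pattern. Others in the lists were named after their values were seen, as relatives or partners of these. The share in the knockout library without MNU was a median over genes above 1000 in wild type with MNU. Alternatives were other pseudocounts, filters, scalings and thresholds, and that share subtracted. Promoters are from RefSeq (GRCm38.p6); 9 of 9 symbols matched its gene table. Python 3.11.15, numpy 2.4.6 and pandas 2.3.3 were used. Beside the 13 genes of the list of the CD4 and CD8 choice, 1 more was left out of the list and its counts and is not reported here.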

Additional observations from a re-analysis of the deposited data

Results flagged for a closer look

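For all 9 factors the difference with MNU, as deposited, had opposite signs in wild type and in the knockout, with 1 library in each group, and this was not tested. Of all 10587 genes 65.4% did the same. The knockout minus the wild-type log2 change was 1.30 for Tcf7, 0.91 for Lef1, 0.76 for Bcl11b, 1.52 for Gata3, 0.37 for Runx1, -2.16 for Runx3, 3.23 for Zbtb7b, 1.97 for Tox and 1.15 for Satb1. With the share of the wild-type MNU profile subtracted from the knockout library without MNU, the signs were still opposite for all 9, and Runx3 in the knockout was at -0.06. Scaled to the T-cell genes, Tcf7 and Lef1 were negative in both, Bcl11b was positive in both and Runx1 had its signs exchanged. No group had the 4 samples that a check for an outlying sample needs.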

How the results depend on the processing

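No paired analysis was possible because each group has 1 library, and for the same reason no library could be left out within a group. The pseudocounts 2.5 and 40, the absence of a filter, a mean of at least 100, median-of-ratios scaling and upper-quartile scaling left every count of factors past the threshold within 1.5 times its value and changed the sign of 0 of 54 differences each. Scaling to the 8 T-cell genes changed 11 of 54 signs, none of a difference past 2-fold, and left 2 factors in place of 4 at least 2-fold lower with MNU in wild type. The share subtracted changed 1 of 54 signs, that of Zbtb7b in the knockout without MNU, and left 0 in place of 1 factor past the lower limit for the difference of MNU changes. At 4-fold, 0 factors were higher and 1 lower with MNU in wild type, against 2.45% and 6.48% of all genes. In the knockout against wild type with MNU 1 was higher and 0 lower, against 6.84% and 2.52%. At a limit of 3 for the difference of MNU changes 0 were lower, against 2.09% of all genes. At 1.5-fold, 6 factors in place of 4 were lower with MNU in wild type, against 22.7% of all genes, and 1 was higher, against 17.2%. By the same threshold 1 factor was higher in the knockout without MNU, against 5.71% of all genes, and 6 in the knockout with MNU, against 23.5%. At a limit of 1 for the difference 5 were higher, against 15.8%. The spread between animals and the depth in reads are unknown, which limits all of these values alike.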
